A study of Mus musculus with 16 samples.

Results

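Dexamethasone against vehicle was compared in the quadriceps of mice lacking Klf15, on 8 of the 16 arrays of the study. The members were chosen by label: 4 arrays of knockout (KO) quadriceps from animals given dexamethasone and 4 from KO animals given vehicle. Dexamethasone, a synthetic glucocorticoid, was injected intraperitoneally at 2 mg/kg, and all 8 muscles were taken 8 h after the injection. The other 8 arrays carry wild-type (WT) quadriceps under the same dose, vehicle and time. Their values are given below only beside the KO values. All 16 arrays nevertheless entered the filter on dim probes, the estimate of the spread behind the KO p-values and the marker means. All KO animals, treated or not, share the Klf15 deletion. The targeted allele and the strain, age and sex of the animals are not stated in the labels.

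Glucocorticoids bind the glucocorticoid receptor Nr3c1, which moves into the nucleus and raises or lowers the transcription of its target genes. In skeletal muscle the hormone is known for driving protein breakdown, blocking insulin signalling and turning fuel use toward fat and amino acids, while in immune and stromal cells it holds down interferon and cytokine genes. Klf15 is a zinc-finger transcription factor that the receptor induces in muscle, and it is known for activating enzymes of branched-chain amino acid catabolism and of lipid use. The comparison therefore addresses which glucocorticoid-responsive genes still moved in muscle without Klf15.

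4 promoter windows are printed as examples of short sequence elements, upstream of 2 genes that rose (Sgk1 and Mt2) and 2 that fell (Gbp3 and Ifit1): Sgk1 for the glucocorticoid response element (GRE, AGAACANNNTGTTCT), Mt2 for the metal response element (MRE, TGCACNC or TGCGCNC), and Gbp3 and Ifit1 for the interferon-stimulated response element (ISRE, GAAANNGAAA). Each is the 250 bases upstream of a RefSeq transcript start on GRCm38.p6, read 5′ to 3′ on the gene's strand, and capitals mark the matches on either strand. All 4 genes lie on the plus strand. The windows are chr10:21993640-21993889 (one of several Sgk1 starts), chr8:94172368-94172617 (Mt2), chr3:142559794-142560043 (Gbp3) and chr19:34640639-34640888 (Ifit1).
Sgk1: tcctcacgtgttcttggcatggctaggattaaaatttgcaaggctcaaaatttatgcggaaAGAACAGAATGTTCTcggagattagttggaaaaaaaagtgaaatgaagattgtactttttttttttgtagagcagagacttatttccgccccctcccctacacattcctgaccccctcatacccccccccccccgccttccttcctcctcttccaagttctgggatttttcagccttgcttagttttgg
Mt2: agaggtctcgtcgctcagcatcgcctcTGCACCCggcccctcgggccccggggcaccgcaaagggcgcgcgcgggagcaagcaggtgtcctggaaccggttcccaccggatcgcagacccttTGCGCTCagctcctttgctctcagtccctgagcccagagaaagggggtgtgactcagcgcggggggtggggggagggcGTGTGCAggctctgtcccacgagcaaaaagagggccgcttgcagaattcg
Gbp3: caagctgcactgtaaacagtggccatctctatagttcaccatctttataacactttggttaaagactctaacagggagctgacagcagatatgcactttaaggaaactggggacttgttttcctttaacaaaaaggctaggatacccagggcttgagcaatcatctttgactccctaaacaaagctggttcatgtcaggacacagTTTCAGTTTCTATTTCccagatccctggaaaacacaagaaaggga
Ifit1: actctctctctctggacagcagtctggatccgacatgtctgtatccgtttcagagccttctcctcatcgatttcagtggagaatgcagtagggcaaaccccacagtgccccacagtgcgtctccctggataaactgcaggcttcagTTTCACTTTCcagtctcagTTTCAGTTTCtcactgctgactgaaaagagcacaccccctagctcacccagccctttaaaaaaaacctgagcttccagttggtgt
The Sgk1 match begins 189 bases before the start, and it is the only full GRE of these letters in the promoters of the 12109 tested genes that have a RefSeq promoter. The search used windows of 300 bases, from 250 before to 50 after each start. The half-site AGAACA, which every full GRE contains, stood in the promoters of 16.6% of those tested genes. It stood in those of 16.9% of the 699 genes that rose and have a promoter entry and of 14.8% of the 669 that fell. An MRE stood in the promoters of 37.0% of the tested genes, 44.1% of those that rose and 41.4% of those that fell. The ISRE matches of Gbp3 overlap each other. An ISRE stood in the promoters of 15 of the 25 interferon-stimulated genes that fell and have a promoter entry (60%), against 3.93% of all tested genes. It stood in those of 3.86% of all genes that rose and 7.32% of all that fell. The element is named for interferon-stimulated genes, and the listed ones that did not fall were not compared. A match is a run of letters and not a measured binding site.

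The Klf15 probes checked the labels first. On the brighter probe the level, in log2 units relative to the 75th percentile of each array's signal, ran from -1.29 to 0.64 on the 8 KO arrays and from 2.80 to 4.77 on the 8 WT arrays. The groups did not overlap, and KO arrays lay 14.7-fold lower (exact two-sided permutation p = 0.000155, the smallest that 8 against 8 arrays allow). The other Klf15 probe was 11.1-fold lower. Where the probes lie relative to the deleted part of the gene is not stated in the labels. Within the KO arrays the residual signal of the brighter probe was -1.29, -0.83, -0.47 and -0.12 with vehicle and 0.58, 0.24, 0.64 and 0.60 with dexamethasone. The dexamethasone arrays were all higher, by 1.19 log2 units (SE 0.26, adjusted p = 0.0094), while the other probe gave 0.42 and did not pass (adjusted p = 0.44).

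Between 69.1% and 80.6% of the spots were well above background on the 8 KO arrays, and no spot was saturated. The scanner software marked dexamethasone replicates 2 and 4 for evaluation. The arrays lie on 8 slides. Slides 4, 6 and 7 each carry 1 KO vehicle and 1 KO dexamethasone array, while vehicle replicate 2 and dexamethasone replicate 3 are on slides of their own within the KO set. KO arrays of the same slide deviated together from their group means, with correlations over features of 0.46, 0.48 and 0.75, and so did vehicle replicate 2 and dexamethasone replicate 3, on different slides (0.66). Dexamethasone replicate 1 stood apart in markers of blood cells. The median of 12 neutrophil markers, each set against its mean over the 16 arrays, was 5.45 log2 units there and -1.77 to -0.73 on the other 7 KO arrays. All 12 of these markers were well above background on that array and 4 to 9 of them on the others. The median of 6 erythroid markers was 1.31 on the same array and -0.72 to -0.17 on the others.

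Dexamethasone changed many genes of KO muscle, in both directions. Lcn2, Orm3, Mt2 and Fkbp5 were among the largest rises, and interferon-inducible GTPases and endothelial genes were among the largest falls. Of 25189 features tested, 2579 (10.2%) passed an adjusted p of 0.05, of which 1433 rose (5.69%) and 1146 fell (4.55%). A feature is a gene, or an accession where no symbol was matched, and 1741 of those that passed have a symbol. The median change was 0.70 log2 units among features that rose and -0.74 among those that fell, against 0.08 over all features tested. At least a 2-fold change was reached by 411 that rose and 312 that fell, and a change of at least 2 log2 units by 75 and 38. The 4 arrays of one treatment all lay above the 4 of the other for 2434 of the 2579. Such separation was seen, upward, in 9.16% and, downward, in 6.75% of all features. Within slides 4, 6 and 7, 2567 of the 2579 had the same sign on every slide. For the 2434 this follows from the separation of the arrays. All 2579 were chosen for a difference on these same arrays, so the count only describes them. The count was 1268 without the 3 arrays marked for evaluation, 1419 when arrays were scaled to their medians, 373 after normexp background correction and 5080 with slide as a random block. With the KO arrays fitted alone it was 1748. The share of calls that were rises was 55.6% here, 44.3% under median scaling and 44.8% under quantile normalization.

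Of the 37 lists of pathway genes with any call, 33 had over 1.5 times fewer with normexp background correction; this is repeated below only for some lists. A gene described below as having risen or fallen passed this threshold, and it also passed with each of the 8 KO arrays left out in turn unless another value is given beside it. Counts of 1 or 2 genes of a list often lost or gained a member when 1 array was left out, and they are given as a description. Each count of a list is to be read beside the 5.69% that rose and the 4.55% that fell over all features. The labels number the arrays of a group as replicates without saying that each holds 1 animal, so p-values measure the spread between these samples, which may in part be technical. Quadriceps holds fibres, vessels, fibroblasts, nerve and immune cells, and in such bulk RNA fewer cells of a type and less RNA per cell cannot be told apart. Members of close gene families (Orm, Gbp, Oas, Ifit, Serpina3, H2, Klk1b and Cmtm2 genes) share sequence, and their probes may respond to more than 1 member. The rule for naming genes, given at the end, chose 239 that passed, and 88 of these had other probes. All other probes had the same sign for 86 of the 88, and at least 1 passed the same way for 51.

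The largest rise was that of Lcn2, which encodes lipocalin 2, a secreted protein that binds bacterial iron carriers. Its level was -4.54, -4.14, -4.63 and -3.87 on the vehicle arrays and 2.61, 1.80, 2.06 and 2.00 on the dexamethasone arrays. All 4 treated arrays were far above all 4 controls, an 85.3-fold difference (6.42 log2 units, SE 0.37, adjusted p = 4.7e-07). Lcn2 is also one of the neutrophil markers, and the other 11 tested did not pass. On the 3 treated arrays without the neutrophil signal Lcn2 was at 1.80 to 2.06, still above every control.

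Orm3, for the acute phase protein orosomucoid 3, was at -4.90, -5.57, -5.40 and -3.19 with vehicle and at 0.80, 0.65, 0.28 and 1.60 with dexamethasone. The treated arrays were all higher, by 48.4-fold (adjusted p = 1.8e-05). Ptgds, the prostaglandin D2 synthase, was at -2.82, -4.90, -4.36 and -3.82 with vehicle and at 0.32, 0.22, -0.10 and -0.39 with dexamethasone, a 15.9-fold rise. The transcription factor gene Sox4 went from between -3.37 and -2.89 to between 0.33 and 1.99, a 15.8-fold rise. Ptprf, a receptor protein tyrosine phosphatase, rose 11.3-fold from a vehicle range of -0.62 to 0.46 to a treated range of 3.18 to 3.60. Stc2, for the secreted glycoprotein stanniocalcin 2, rose 10-fold. Flvcr2, which encodes a membrane transporter, rose 8.35-fold, and Lao1, an L-amino acid oxidase, rose 6.26-fold. Greb1, known as an estrogen-regulated gene, was not well above background on any vehicle array and well above it on all 4 treated arrays, which puts it at least 15.4-fold higher. Klk1b16, a kallikrein family gene, was likewise seen only on treated arrays, at least 3.94-fold higher.

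**Figure D1:**
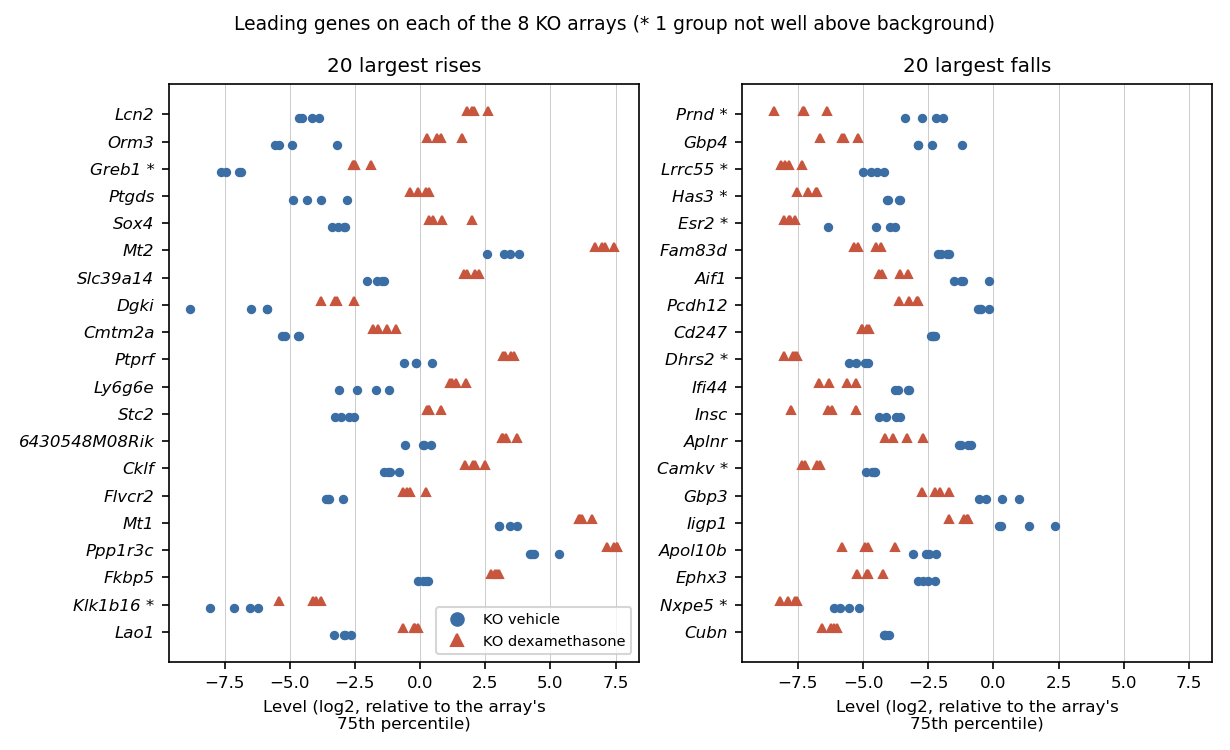
Level of the 20 genes with the largest rises and the 20 with the largest falls on each KO array (x axis, log2 relative to the array's 75th percentile); circles are the 4 vehicle arrays, triangles the 4 dexamethasone arrays, and an asterisk marks a gene with 1 group not well above background. In every row the 4 triangles lie on one side of the 4 circles, from Lcn2 (85.3-fold higher) to Gbp4 (11.4-fold lower). Gbp4 lay near background on the treated arrays, and the genes were chosen for this difference.

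Prnd, which encodes the prion-like protein doppel, had the largest fall. Its level was -2.22, -2.75, -1.94 and -3.38 with vehicle, and it was not well above background on any treated array. That puts it at least 12.4-fold lower. Has3, a hyaluronan synthase, was at -4.05, -4.10, -3.63 and -3.58 with vehicle and also not well above background with dexamethasone, at least 5.14-fold lower. Lrrc55, an auxiliary subunit of potassium channels, was at least 3.03-fold lower in the same way. The dehydrogenase gene Dhrs2 was at least 2.08-fold lower, although its difference was 0.01 log2 units after normexp background correction of the median signals. Esr2, the gene of estrogen receptor beta, was well above background on all vehicle arrays and on no treated array, at least 2.93-fold lower.

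Other large falls were measured on both sides. Pcdh12, a protocadherin of endothelial cells, was at -0.48, -0.53, -0.60 and -0.17 with vehicle and at -2.95, -3.61, -3.23 and -2.90 with dexamethasone. All 4 treated arrays were lower, by 6.62-fold (adjusted p = 4.6e-06), although a second Pcdh12 probe gave only -0.65 and did not pass (adjusted p = 0.46). Aplnr, the apelin receptor of endothelial cells, fell 5.33-fold on its brighter probe, while its other probe gave -0.46 (adjusted p = 0.89). Cd247, the zeta chain of the T cell receptor, was within -2.38 to -2.23 with vehicle and within -5.05 to -4.76 with dexamethasone, a 6.12-fold fall (adjusted p = 9.4e-07). Aif1, a macrophage marker, fell 7.25-fold, Fam83d 7.63-fold and the epoxide hydrolase gene Ephx3 4.58-fold. The other probe of Aif1 gave -2.31 and that of Cd247 -1.60, and neither passed (adjusted p = 0.15 and 0.12).

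**Figure D2:**
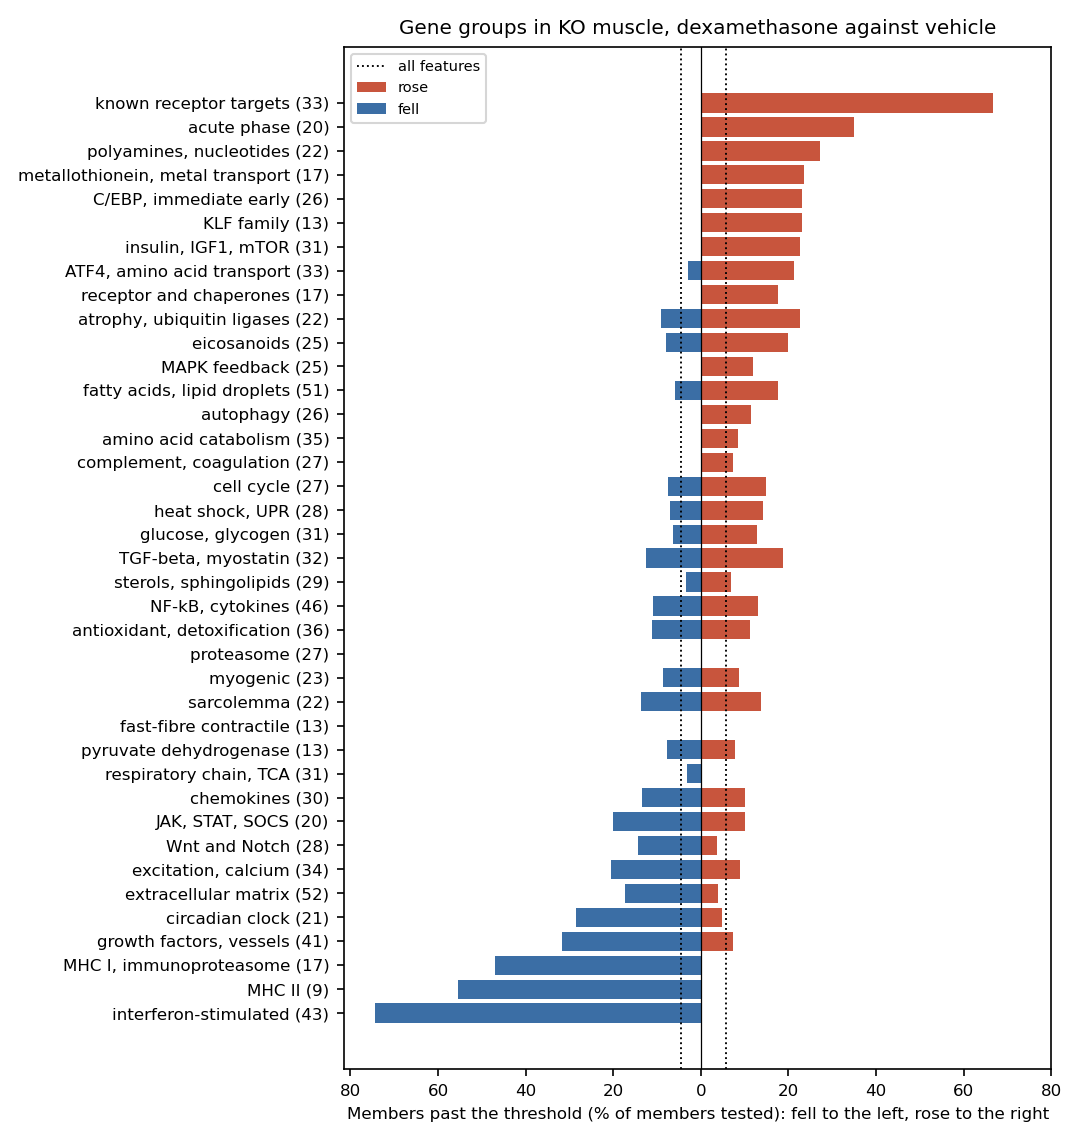
Share of the tested members of each of 39 gene groups that rose (right) or fell (left) with dexamethasone in KO muscle (x axis, percent of the members tested, number in brackets after the group); dotted lines mark the same shares over all features tested, 5.69% and 4.55%. Known receptor targets have the longest bar to the right (22 of 33) and interferon-stimulated genes the longest to the left (32 of 43). The groups were chosen with earlier results of these data known.

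Most established receptor targets rose in muscle without Klf15. Of 33 tested, 22 rose and none fell, with a median change of 1.10 log2 units against 0.08 over all features. This list, like all lists here, was chosen with earlier results of these data known, so its share only describes its members. The 22 include the residual signal of Klf15 itself on its brighter probe. The count stayed between 19 and 21 with 1 KO array left out and was 14 after normexp correction. Fkbp5, the co-chaperone that restrains the receptor, was at 0.10, 0.29, -0.09 and 0.22 with vehicle and at 3.03, 2.70, 2.94 and 2.88 with dexamethasone. The groups were well apart, a 6.74-fold rise (adjusted p = 4.9e-07). Map3k6, a stress-activated kinase, rose 4.53-fold (1.87 to 2.21 with vehicle, 4.20 to 4.34 with dexamethasone). Errfi1, an inhibitor of EGF receptor signalling, rose 2.60-fold, and Cdkn1a, the cell cycle inhibitor p21, rose 4.93-fold. Sgk1, the kinase gene whose promoter is shown above, rose 2.15-fold from an already high level (5.67, 5.76, 6.12 and 6.05 to 6.84, 6.99, 7.09 and 7.11).

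Not every classical target passed. Tsc22d3, which encodes the anti-inflammatory protein GILZ, was at 4.94, 5.15, 4.92 and 4.81 with vehicle and at 4.94, 5.20, 5.19 and 5.04 with dexamethasone. The groups overlapped and the difference of 0.13 log2 units did not pass (SE 0.13, adjusted p = 0.66). Per1, a clock gene with a receptor site, was also without a difference past the threshold (-0.07, adjusted p = 0.86). For the receptor itself, the brightest Nr3c1 probe gave -0.31 and did not pass (adjusted p = 0.28), while 3 other probes gave -0.81, -0.46 and -0.60 with adjusted p of 0.027, 0.060 and 0.018. Among 17 tested genes of the receptor, its chaperones and its coregulators, 3 rose and none fell. They are Fkbp5, the corepressor Nrip1 (2.02-fold) and the coactivator Ncoa1 (1.71-fold, adjusted p up to 0.081 without vehicle replicate 2 or 3 or dexamethasone replicate 2 or 3). The count was 1 without the 3 arrays marked for evaluation.

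Some acute phase and metal-binding genes rose. Among 20 acute phase genes, 7 rose and none fell (4 without vehicle replicate 2). Besides Lcn2 and Orm3 these include Hp, for the hemoglobin-binding protein haptoglobin. Hp was at 2.23, 2.27, 1.52 and 2.38 with vehicle and at 5.12, 4.39, 4.63 and 3.56 with dexamethasone, 5.01-fold higher. Serpina3n, a serine protease inhibitor, rose 5.72-fold. In the list of metallothioneins and metal transporters, 4 of 17 rose and none fell. The metallothionein genes Mt1 and Mt2, which buffer zinc and copper, were among the strongest. Mt2 was at 2.57, 3.79, 3.21 and 3.47 with vehicle and at 7.44, 6.73, 6.96 and 7.08 with dexamethasone, 13.9-fold higher. Mt1 rose 7.78-fold, and Slc39a14, the zinc importer Zip14, rose 12-fold (-2.04 to -1.37 with vehicle, 1.69 to 2.27 with dexamethasone).

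A minority of the genes of muscle protein breakdown changed. Among 22 ubiquitin ligase and atrophy genes, 5 rose and 2 fell. Without vehicle replicate 1 or 3, or without dexamethasone replicate 4, 2 rose and 1 fell. Those with the firmest rise were Trim63 and Foxo1. Trim63, the ligase MuRF1, was at 5.49, 5.80, 5.71 and 5.73 with vehicle and at 7.33, 7.33, 7.38 and 7.36 with dexamethasone, 3.17-fold higher (adjusted p = 4.9e-05). Foxo1, a transcription factor that drives atrophy genes, was at 2.39, 2.55, 2.34 and 2.83 and then at 4.82, 5.01, 4.95 and 4.83, 5.17-fold higher. The treated arrays of both genes were tightly grouped above all controls. Fbxo32, the ligase atrogin-1, was higher on all 4 treated arrays (4.61, 4.70, 4.88 and 4.36 against 3.55, 3.69, 3.64 and 3.34). Its difference of 1.08 log2 units (SE 0.36) nevertheless did not pass (adjusted p = 0.078).

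None of 27 proteasome subunit genes passed in either direction in the limma fit, 3 had an unadjusted p under 0.05, and the median of the list was 0.10 log2 units. In the autophagy list 3 of 26 rose and none fell (1 rose without the 3 arrays marked for evaluation). That share is near the 10.2% that passed over all features. Bnip3, a mitophagy receptor, rose 1.49-fold, and Ccng2, for cyclin G2, rose 1.35-fold.

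A minority of insulin and growth pathway genes rose. Of 31 genes of the insulin, IGF1 and mTOR pathways, 7 rose and none fell, and 4 rose without vehicle replicate 3 or without dexamethasone replicate 4, and 3 without the arrays marked for evaluation or after normexp correction. Ddit4, which inhibits mTOR complex 1, was at 4.36, 5.11, 4.38 and 5.11 with vehicle and at 6.91, 6.99, 6.17 and 6.48 with dexamethasone. Treated arrays were all higher, by 3.73-fold. Sesn1, a stress-inducible mTOR inhibitor, rose 4.55-fold, and Pik3r1, the regulatory subunit of phosphoinositide 3-kinase, rose 3.32-fold with 3 other probes between 1.63 and 1.77 log2 units. In the TGF-beta and myostatin list 6 of 32 rose and 4 fell (3 rose without the arrays marked for evaluation). Mstn, for myostatin, the secreted inhibitor of muscle growth, was at 2.65, 2.90, 2.65 and 2.28 with vehicle and at 3.63, 4.12, 4.05 and 4.25 with dexamethasone, 2.63-fold higher. Fst, for its antagonist follistatin, rose 2.78-fold. Acvr2b, the main receptor of myostatin, fell 2.42-fold (0.17, -0.12, -0.17 and -0.42 to -1.40, -1.12, -1.53 and -1.58). Acvr1, a type I receptor of the family, fell 1.69-fold. The type I receptor gene Tgfbr1 rose 1.51-fold.

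Some genes of fuel metabolism changed. In the glucose and glycogen list 4 of 31 rose and 2 fell. Ppp1r3c, which targets protein phosphatase 1 to glycogen, was at 4.38, 5.33, 4.31 and 4.21 with vehicle and at 7.17, 7.44, 7.55 and 7.57 with dexamethasone, 7.34-fold higher. Pfkfb1 and Pfkfb4, which set the level of fructose 2,6-bisphosphate, rose 1.79-fold and 1.83-fold. Slc2a12, a glucose transporter, fell 1.82-fold, with vehicle arrays at 0.26 to 0.51 and treated arrays at -0.64 to -0.45. The other fall, of the glycogen synthase gene Gys1 (1.32-fold), had an adjusted p of up to 0.10 without vehicle replicate 1 or 2 or without dexamethasone replicate 1, 3 or 4. Pdk4, the kinase that shuts down pyruvate dehydrogenase, was at 5.03, 5.66, 5.84 and 6.18 with vehicle and at 7.30, 7.40, 7.29 and 7.37 with dexamethasone, 3.16-fold higher. The treated arrays were much closer to each other than the controls were. Of 31 respiratory chain and citric acid cycle genes, none rose and 1, Ogdh, fell (1.47-fold, adjusted p = 0.027, and up to 0.089 without vehicle replicate 1 or 2 or without dexamethasone replicate 1, 3 or 4). That share is not above the 10.2% that passed over all features.

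In the list of fatty acid and lipid droplet genes 9 of 51 rose and 3 fell, and 5 rose without the arrays marked for evaluation. Angptl4, a lipoprotein lipase inhibitor, rose 5.22-fold. The lipid droplet coat genes Plin5 and Plin4 rose 3.61-fold and 2.60-fold. Plin4 was at 6.35, 6.34, 6.17 and 6.63 with vehicle and at 7.75, 7.89, 7.74 and 7.62 with dexamethasone, and its groups were far apart. Ucp3, a mitochondrial carrier of muscle, rose 2.25-fold and Acsl3, an acyl-CoA synthetase, 2.20-fold. The falls included both muscle coactivators of mitochondrial genes, Ppargc1b (2.71-fold) and Ppargc1a (1.47-fold). Ppargc1b was at 2.80, 2.51, 2.59 and 2.67 with vehicle and at 1.29, 1.24, 1.27 and 1.01 with dexamethasone.

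Amino acid catabolism is the branch that Klf15 is known for. Of 35 genes tested, 3 rose and none fell, a share near the 10.2% that passed over all features. Without vehicle replicate 1 or 3 there was 1 rise, and after normexp correction none passed. Glul, for glutamine synthetase, was the firmest, at 5.12, 5.12, 4.97 and 5.86 with vehicle and at 6.56, 6.75, 6.66 and 6.58 with dexamethasone, 2.59-fold higher. Bcat2, the first enzyme of branched-chain catabolism, was at 0.00, -0.29, -0.60 and -0.71 with vehicle and at -0.61, -0.30, -0.71 and -0.88 with dexamethasone. These groups overlapped and the difference of -0.23 log2 units did not pass (SE 0.20, adjusted p = 0.61). Prodh, proline dehydrogenase, differed by 0.33 (adjusted p = 0.080) and the carnitine carrier gene Slc25a20 by 0.06 (adjusted p = 0.91). In the list of amino acid transport and ATF4 pathway genes, 7 of 33 rose and 1 fell (4 rose without vehicle replicate 2). The amino acid transporter gene Slc7a8 was within -0.08 to 0.16 with vehicle and within 1.48 to 1.72 with dexamethasone, 2.99-fold higher. Slc38a2, a transporter of neutral amino acids, rose 1.97-fold, and Mthfd2, a mitochondrial folate enzyme, rose 2.10-fold. Among 22 polyamine, creatine and nucleotide genes 6 rose and none fell, led by the ectonucleotidase gene Nt5e (2.44-fold).

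Transcription factors and growth regulators moved in both directions. Among 26 C/EBP and immediate early genes 6 rose and none fell (3 without vehicle replicate 1 or 3 or dexamethasone replicate 3 or 4). Cebpd, a C/EBP factor of the acute phase, was at 4.71, 4.96, 5.25 and 5.22 with vehicle and at 6.75, 6.78, 6.82 and 6.75 with dexamethasone, 3.34-fold higher. Maff, a small Maf factor, rose 4.62-fold. In the cell cycle list 4 of 27 rose and 2 fell, and 2 rose without vehicle replicate 1, 2 or 3 or dexamethasone replicate 1 or 3. Cdkn1a and Trp53inp1, both p53 targets, rose 4.93-fold and 3.05-fold, whereas Ccnd2, for cyclin D2, fell 2.12-fold with 2 other probes at -1.14 and -1.07. Of 13 KLF family genes 3 rose, Klf4, Klf6 and the residual signal of the deleted Klf15 on its brighter probe only. A second Klf6 probe gave 0.72 and did not pass (adjusted p = 0.068). Only 1 rose without any 1 of vehicle replicates 1, 2 and 3 or dexamethasone replicates 1, 3 and 4.

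Some clock genes fell. Of 21 clock genes 6 fell and 1 rose (2 rose without vehicle replicate 2, and 3 fell without the arrays marked for evaluation, after normexp correction or with slide as a fixed block). Dbp, an output transcription factor, was at 6.34, 6.07, 6.01 and 6.20 with vehicle and at 5.16, 5.24, 4.91 and 4.95 with dexamethasone, 2.13-fold lower. Bhlhe41 (2.83-fold) and Hlf (1.36-fold) fell as well. Nfil3, a repressor that opposes Dbp at the same sites, was at 2.13, 2.01, 1.80 and 2.16 with vehicle and at 3.43, 3.69, 3.15 and 3.23 with dexamethasone, 2.55-fold higher.

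Most interferon-stimulated genes fell. Of 43 tested, 32 fell and none rose, with a median of -0.84 log2 units. The count stayed between 26 and 32 with 1 KO array left out and was 20 without the 3 arrays marked for evaluation. With the KO arrays fitted alone 25 fell and 1 rose. After normexp correction 7 fell, with a median of -0.57. The interferon-inducible GTPases led. Gbp4 was at -2.89, -2.90, -1.20 and -2.34 with vehicle and at -5.73, -6.64, -5.80 and -5.21 with dexamethasone, 11.4-fold lower. On dexamethasone replicate 2 Gbp4 lay below the array's lowest signal well above background (-6.26). The other treated levels of Gbp4 lay near that limit of their arrays, so its fold is less certain than its direction. Gbp3, whose promoter is shown above, was at -0.57, -0.29, 0.98 and 0.33 and then at -2.23, -2.75, -2.06 and -1.71, 4.92-fold lower. Vehicle replicate 3 had the highest level of both genes, and all treated arrays lay below all controls. Iigp1, an immunity-related GTPase, fell 4.83-fold, and Gbp2 fell 3.11-fold.

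Effectors and sensors of the pathway were among the falls. Zbp1, a sensor of nucleic acids, fell 3.74-fold and Oasl2, of the oligoadenylate synthetase family, 3.61-fold. Ifit1, which binds viral RNA, was at -3.42, -2.70, -2.33 and -2.51 with vehicle and at -4.23, -4.86, -4.15 and -3.71 with dexamethasone, 2.82-fold lower. Of the transcription factors in the list, Irf9 fell 1.64-fold, Irf1 1.69-fold and Stat2 1.69-fold. Usp18, which removes the ubiquitin-like protein ISG15, went the other way at 0.88 log2 units without passing (adjusted p = 0.058). Isg15 itself was lower by 1.12 without passing (adjusted p = 0.071), with dexamethasone replicate 1 at -1.42, inside the vehicle range of -1.50 to -1.01, and the other 3 between -3.05 and -2.57.

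**Figure D3:**
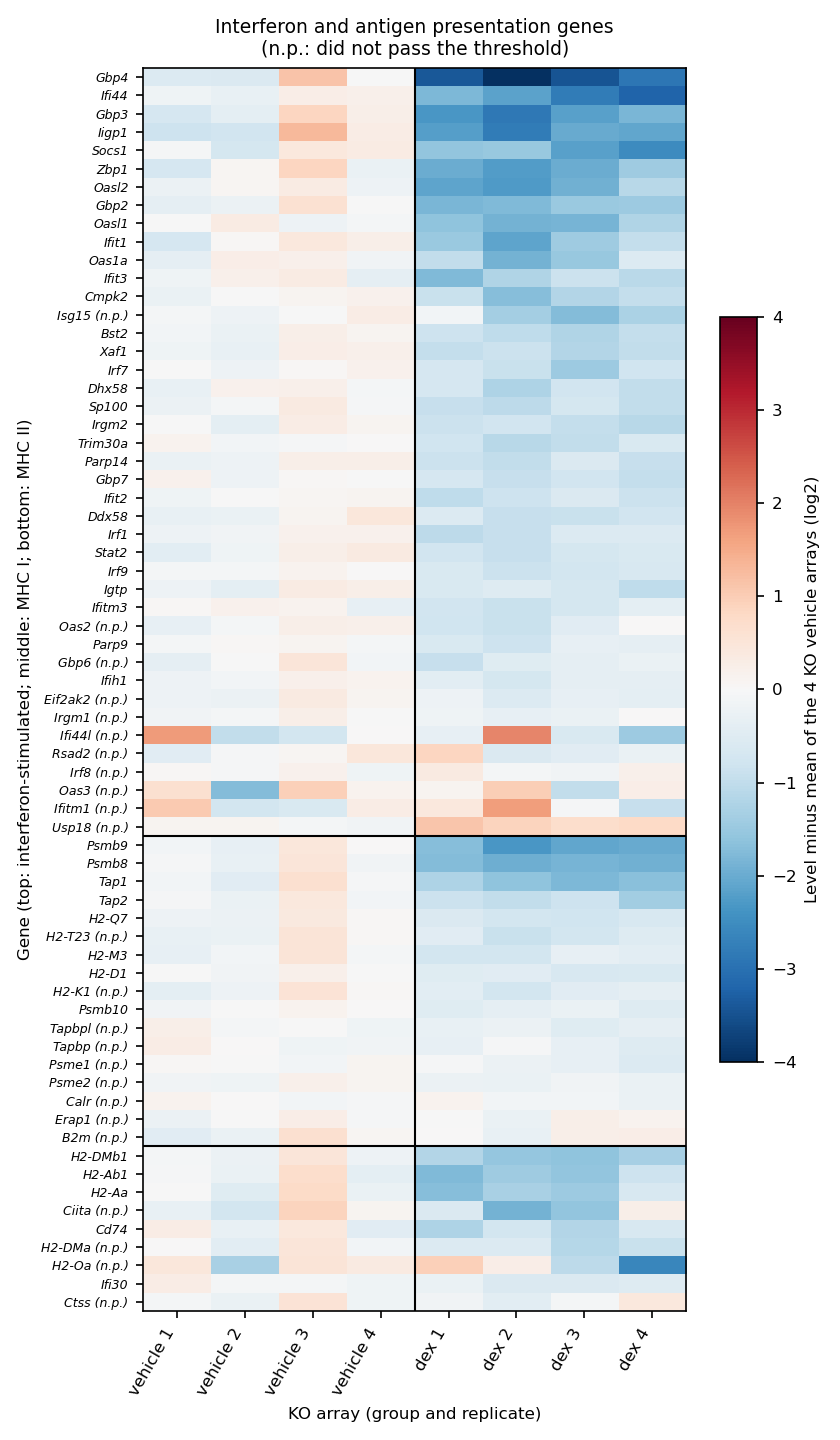
Level of 42 of the 43 interferon-stimulated genes (top), 17 MHC class I and immunoproteasome genes (middle) and 9 MHC class II genes (bottom) on the 8 KO arrays, as the log2 difference from the mean of the 4 KO vehicle arrays (colour scale, blue lower and red higher); n.p. marks genes that did not pass. The 4 dexamethasone columns are blue for most rows, deepest for Gbp4 (11.4-fold lower, with treated levels near background). Vehicle replicate 3 is the reddest of the controls.

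Antigen presentation genes fell in part. Of 17 MHC class I and immunoproteasome genes 8 fell and none rose (5 without vehicle replicate 3, 3 without the arrays marked for evaluation and 2 after normexp correction). Psmb8, an immunoproteasome subunit that replaces a constitutive one under interferon, was at 1.25, 1.00, 1.79 and 1.17 with vehicle and at -0.43, -0.64, -0.56 and -0.63 with dexamethasone. All treated arrays were lower, by 3.65-fold. Psmb9, its partner subunit, fell 4.11-fold, and the peptide transporter genes Tap1 and Tap2 fell 2.97-fold and 2.02-fold. Among 9 MHC class II genes 5 fell and none rose (3 without vehicle replicate 1 or 3 or dexamethasone replicate 3, and 2 after normexp correction). H2-Ab1, a class II beta chain, was at 2.49, 2.27, 3.24 and 2.15 with vehicle and at 0.77, 1.10, 0.97 and 1.71 with dexamethasone, 2.64-fold lower. Of cells that carry class II, the median of 19 macrophage markers lay between -0.16 and 0.28 on vehicle arrays and between -0.45 and 0.38 on treated arrays, and that of 4 B cell markers between -1.12 and 1.11 and between -1.68 and 1.14. Of the macrophage markers 15 were lower in sign and 4 higher. Aif1 (7.25-fold on its brighter probe) and Fcgr1 (4.23-fold) fell, 1, Lyve1, rose, and the other 16 did not pass. The part of cell numbers in the class II fall was not tested.

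Chemokine and cytokine genes changed in both directions. In the chemokine list 3 of 30 rose and 4 fell (2 fell without vehicle replicate 3). Cxcl9, an interferon-induced T cell attractant, fell 3.32-fold. The scavenging receptor Ackr3 rose instead, from 2.06, 2.18, 1.91 and 1.87 to 4.34, 4.38, 4.16 and 3.84, a 4.51-fold difference. Ackr2, a decoy receptor for inflammatory chemokines, rose 1.81-fold, and Cxcl13, a B cell attractant, rose 6.17-fold. Of 46 NF-kB and cytokine genes 6 rose and 5 fell (3 fell without dexamethasone replicate 3 or 4, and 3 rose without the arrays marked for evaluation). Il33, an alarmin of stromal cells, was at -0.67, -0.36, -0.17 and 0.18 with vehicle and at -1.98, -2.65, -1.45 and -2.01 with dexamethasone, 3.40-fold lower. Tnfsf10, the death ligand TRAIL, fell 2.25-fold. Nfkbia, the inhibitor of NF-kB, rose 1.72-fold, and the decoy receptor gene Il1r2 and the signalling receptor gene Il1r1 rose 3.67-fold and 1.88-fold. In the JAK, STAT and SOCS list 2 of 20 rose and 4 fell (2 fell without vehicle replicate 3 or 4 or dexamethasone replicate 2 or 4), among them the kinase genes Jak3 (1.78-fold) and Tyk2 (1.49-fold).

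Eicosanoid genes changed in both directions. Of 25 tested, 5 rose and 2 fell. Pla2g4a, the phospholipase that frees arachidonic acid, fell 2.01-fold, from -2.55, -2.46, -2.40 and -2.11 to -3.04, -3.98, -3.30 and -3.24. Hpgd, which inactivates prostaglandins, rose 2.64-fold, from -1.74, -1.71, -1.60 and -1.73 to -0.60, -0.12, -0.07 and -0.38. Ptgs2, the inducible cyclooxygenase, was well above background on 1 vehicle and 2 treated arrays and did not pass. Of 27 complement and coagulation genes 2 rose and none fell, a share not above the 10.2% that passed over all features.

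Genes of vessels and their growth factors fell in larger number than they rose. Of 41 growth factor and angiogenesis genes 13 fell and 3 rose, while 7 fell without vehicle replicate 2 and 8 without dexamethasone replicate 4. Tek, the angiopoietin receptor Tie2, was at 0.20, 0.26, 0.17 and 0.10 with vehicle and at -0.72, -1.14, -0.54 and -0.59 with dexamethasone, 1.91-fold lower. Nrp1, a coreceptor of VEGF, fell 2.25-fold, Tie1 1.70-fold and Pdgfa, a platelet-derived growth factor chain, 1.83-fold. Secreted factors were among the rises. Hbegf, a ligand of the EGF receptor, was at 1.64, 1.82, 1.55 and 2.00 and then at 3.87, 3.37, 3.58 and 3.62, 3.62-fold higher. Edn1, for the vasoconstrictor endothelin 1, rose 3.38-fold. In the list of 18 endothelial markers 6 fell and 2 rose, with Eng, the TGF-beta coreceptor endoglin, 1.54-fold lower and Robo4 1.53-fold higher. The median change of the list was -0.25 log2 units, and -0.29 to -0.20 with 1 KO array left out. The part of cell numbers in these falls was not tested. Notch3, a receptor of pericytes and vascular smooth muscle, was within 1.71 to 1.84 and then within 0.59 to 0.76, 2.11-fold lower. It was 1 of 4 falls, against 1 rise, among 28 Wnt and Notch genes (7 fell and 2 rose without dexamethasone replicate 2, and 3 rose without vehicle replicate 4).

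**Figure D4:**
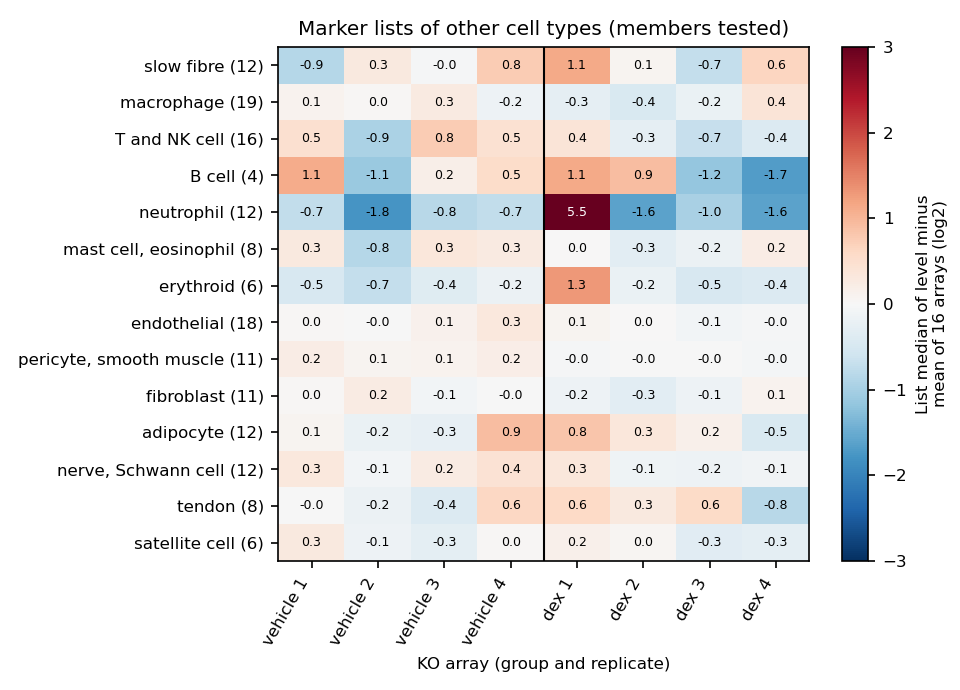
Median of the tested members of 14 marker lists on the 8 KO arrays, each gene set against its mean over the 16 arrays (numbers and colour, log2; colours stop at 3 and -3). Dexamethasone replicate 1 stands out for neutrophil markers, at 5.45, and for erythroid markers, at 1.31.

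Matrix genes fell in part. Of 52 tested, 9 fell and 2 rose (5 fell without vehicle replicate 1 or 2 or dexamethasone replicate 3). Apart from Has3, the firm falls were Timp4, a metalloproteinase inhibitor (2.64-fold), the small proteoglycan gene Lum (1.72-fold) and the collagen genes Col15a1 (1.67-fold) and Col6a1 (1.65-fold). Timp4 was at 3.0, 2.87, 2.30 and 2.96 with vehicle and at 1.05, 1.62, 1.48 and 1.38 with dexamethasone. Thbs1, for the matrix glycoprotein thrombospondin 1, rose 2.71-fold. The median of 11 fibroblast markers lay between -0.08 and 0.24 on vehicle arrays and between -0.31 and 0.12 on treated arrays.

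Contractile genes of fast fibres, which make up most of the mouse quadriceps, did not pass. None of 13 was called in the limma fit, and 0 had an unadjusted p under 0.05. Myh4, the myosin heavy chain of the fastest fibres, was at 8.59, 9.05, 9.15 and 8.91 with vehicle and at 8.83, 9.10, 9.03 and 9.20 with dexamethasone. These levels overlapped (difference 0.11, SE 0.19, adjusted p = 0.83). Some membrane genes of the fibre changed. In the excitation and calcium list 3 of 34 rose and 7 fell (4 fell without vehicle replicate 1 or 2 or dexamethasone replicate 1). Over all features 5.69% rose and 4.55% fell, which also stands beside the sarcolemma and myogenic counts below. Kcnk1, a leak potassium channel, was at -3.76, -3.66, -3.25 and -3.08 with vehicle and at -0.21, -1.77, -1.47 and -0.13 with dexamethasone, 5.82-fold higher. Scn4a, the sodium channel of muscle action potentials, fell 1.55-fold. Dtna, for the dystrophin partner dystrobrevin, rose 1.57-fold, and Itga7, the laminin receptor of fibres, fell 1.47-fold. They were among 3 rises and 3 falls in 22 sarcolemma genes. Musk, the kinase that organises the neuromuscular junction, was at -2.80, -2.45, -2.88 and -3.23 with vehicle and at -1.39, -1.01, -1.44 and -0.79 with dexamethasone, 3.21-fold higher. Of 23 myogenic genes 2 rose and 2 fell, with the myogenic factor gene Myf6 1.75-fold higher and Mef2d 1.52-fold lower.

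The same contrast was fitted in WT muscle. There 2694 features (10.7%) passed, 1272 of them higher (5.05%) and 1422 lower (5.65%). The WT split changed with the scaling, to 1824 higher and 378 lower under median scaling. The WT count was 767 with slide as a fixed block (2637 in KO), 165 after normexp correction, 4053 with slide as a random block and 1632 without WT vehicle replicate 2. Only slide 5 carries both WT groups, while 3 slides carry both KO groups, so the counts with slide as a fixed block are not like for like. In WT, treatment and slide largely cannot be told apart, and the interaction below shares this limit. Features that passed in both genotypes with the same sign numbered 1355, which is 52.5% of the KO calls and 50.3% of the WT calls. A further 4 passed in both with opposite signs. Of the KO calls, 92.8% had the same sign of change in WT, whether or not it passed there. For features that rose in KO the median change in WT was 0.50 log2 units, and for those that fell it was -0.55.

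The difference between the genotypes was tested by the interaction of genotype and treatment. No feature passed, with 2892 at an unadjusted p under 0.05 and a lowest adjusted p of 0.092. With slide as a random block 310 features passed (1.23%), and with slide as a fixed block none did. Several named genes therefore have different values in the genotypes without a difference that passed in the fit without blocks. Other genes had close values: Lcn2 rose by 6.42 log2 units in KO and 6.35 in WT, Fkbp5 by 2.75 and 2.98, and Foxo1 by 2.37 and 2.33. Lcn2 is one of the neutrophil markers, whose median was 6.92 on WT dexamethasone replicate 3 and -1.85 to 0.80 on the other treated WT arrays. The erythroid median on that replicate was 1.83. Pcdh12 fell by 2.73 in KO and by 1.42 in WT, where both passed. Its interaction had an adjusted p of 0.18, and 0.048 with the random block. Esr2 fell in KO and was at -0.36 in WT without passing (interaction adjusted p 0.17, and 0.037 with the block). Slc2a12 gave -0.87 in KO and -0.14 in WT (0.17 and 0.014). Bcat2 gave -0.23 in KO and 0.80 in WT, where it passed (0.22 and 0.044). Of the 35 amino acid catabolism genes 12 rose and 1 fell in WT, against 3 and none in KO, and of the 18 endothelial markers none rose and 2 fell in WT, against 2 and 6 in KO. Whether these counts differ between the genotypes was not tested.

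**Figure D5:**
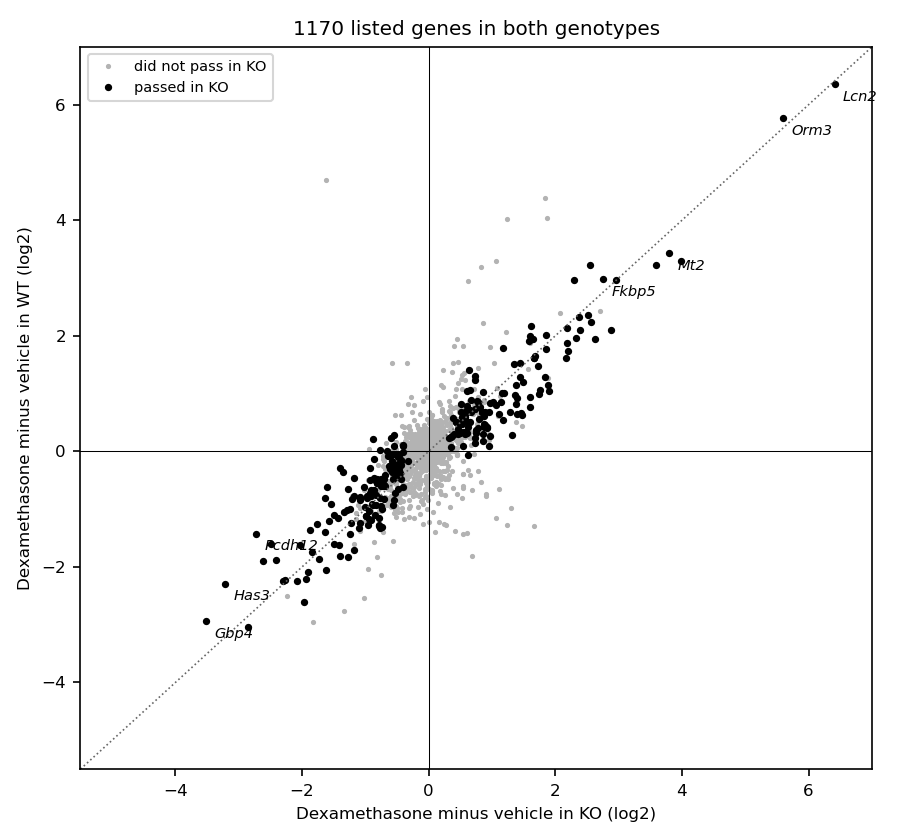
Dexamethasone minus vehicle in KO (x axis, log2) and in WT (y axis, log2) for the 1170 listed genes that were tested; black points passed in KO, grey points did not, and the dotted line marks equal change. The black points follow the dotted line from Gbp4 at the lower left (-3.51 in KO and -2.94 in WT) to Lcn2 at the upper right (6.42 and 6.35).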

How the data were processed

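Total RNA from quadriceps was amplified as whole-transcript cDNA, labelled with Cy3 and hybridised to 16 one-colour Agilent arrays, 4 in each of 4 groups, per the labels' titles and protocols. The deposited scanner files hold intensity values from Agilent Feature Extraction 10.7.3.1 (grid build mm9). The processed intensity was background-subtracted and detrended within the array and not normalized between arrays, per the file headers. A deposited table of log2 values for the same arrays, made by an unstated normalization, served as an alternative. Its column medians lay between 6.85 and 6.87, and its ranks matched the scanner's median signal. Its sorted values lay within 0.073 log2 units of their mean over arrays, as quantile normalization gives. It is therefore not independent of the alternative with quantile normalization.

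Here each array's processed intensity was divided by its 75th percentile, taken over the 43379 spots (41174 probes) that are not controls, and put on a log2 scale. Probes well above background on 4 or more of 16 arrays were kept, 24836 probes were given a RefSeq symbol (GRCm38.p6 table), and the brightest probe stood for a gene. In limma 3.58.1 (R 4.3.3) 1 fit of 4 group means with eBayes gave two-sided tests, with Benjamini-Hochberg adjustment over 25189 features and a threshold of 0.05. SE is that of the fit. Folds written "at least" set the measured group's mean against a floor for the dim group, which on each array is the lowest signal well above background or the probe's own, whichever is greater. The number of arrays limits the precision. Scripts were tested on simulated data. Replicate numbers did not pair the samples. Normexp used the median signals with an offset of 50.

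The genes, lists and markers were chosen with earlier results of these data known. By the rule, the text names the 20 largest rises and falls with groups that do not overlap, up to 8 passing members of each list by size of change, non-passing members where values are given, and 15 genes of prior interest (among them Klf15, Fkbp5, Tsc22d3, Bcat2 and Nr3c1). Col6a1, Ifit1, Irf1, Irf9, Pdgfa, Ppargc1a and Stat2 were named outside this rule after their values were seen, and the interaction values given for Pcdh12, Esr2, Slc2a12 and Bcat2 were picked likewise. Some genes of the lists are counted but not reported here by name. The alternative without the 3 arrays marked for evaluation was also chosen after seeing the data. Of the 16 arrays 1, WT dexamethasone replicate 3, was scanned on a separate day.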

Additional observations from a re-analysis of the deposited data

Results flagged for a closer look

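In 23 of the 514 groups of 4 KO arrays examined (257 genes in both treatments), 1 array lay farther from the other 3 than the critical value of Dixon's test for 4 values allows. Chance gives about 1 such group in 20. Dexamethasone replicate 4 accounted for 7 and vehicle replicate 4 for 6.

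Dexamethasone replicate 4 was the highest treated array for Greb1 (-1.89, others -2.59 to -2.49) and Ccl2 (-3.04, others -4.47 to -4.41). It was the lowest for Pik3r1 (1.70, others 2.25 to 2.33), Maff (0.00, others 0.39 to 0.43), Tnfaip2 (1.31, others 1.93 to 2.03), Foxo6 (1.55, others 1.90 to 1.94) and the iron exporter gene Slc40a1 (2.60, others 2.70 to 2.71). Dexamethasone replicate 2 was the highest for Stc2 (0.79, others 0.28 to 0.34) and the lowest for Fosl2 (-1.23, others -0.78 to -0.72) and Klf15 (0.24, others 0.58 to 0.64). Both arrays are among those marked for evaluation. Dexamethasone replicate 3 was the highest for Nrp1 (-1.38, others -1.91 to -1.88).

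Vehicle replicate 4 was the highest control for Orm1 (-0.62, others -2.36 to -2.07), Cxcl13 (-3.52, others -4.30 to -4.25), Osmr (0.66, others 0.32 to 0.35), Abca1 (0.69, others 0.26 to 0.32), Btg1 (2.52, others 2.11 to 2.15) and Dnajb1 (2.19, others 1.83 to 1.85). Each of these genes passed as a rise in the fit of all arrays, so this control lay on the side of the treated arrays. Not all were stable to leaving out 1 KO array. At the lowest, the cell cycle list, which holds Btg1, went from 4 rises to 2. The heat shock list, which holds Dnajb1, also went from 4 to 2, and the acute phase list, which holds Orm1, from 7 to 4. Vehicle replicate 2 was the highest for Ppp1r3c (5.33, others 4.21 to 4.38) and Ppargc1a (2.49, others 2.32 to 2.34) and the lowest for Per3 (-2.64, others -2.06 to -1.96). Vehicle replicate 1 was the highest for Hlf (1.42, others 1.25 to 1.28) and the lowest for Ccng2 (0.92, others 1.04 to 1.06) and Rcan2 (2.82, others 3.16 to 3.19).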

How the results depend on the processing

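The count of 2579 was 1419 with median scaling, 373 with normexp background correction, 5080 with slide as a random block and 1268 without the 3 arrays marked for evaluation. Fewer arrays enter the last of these fits, and the cause was not tested for any of them. Leaving out 1 KO array gave 1828 to 2489. The remaining settings (quantile normalization, the deposited values, no filter or a stricter one on dim probes, averaged probes, slide as a fixed block, the KO arrays alone) gave 1748 to 2788. The share of rises was 46.3% with the deposited values.

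The interaction count of 0 was 310 with slide as a random block, 6 with probes well above background on all 16 arrays, 1 with the deposited values and 0 to 5 with 1 array left out (5 without KO vehicle replicate 4). The cause was not tested. Of 257 genes examined, 164 fell below the threshold with normexp, 89 without the arrays marked for evaluation, 62 with median scaling and 28 to 50 with 1 KO array left out.

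Signs reversed for Dhrs2 (0.00893), Nxpe5 (0.047) and Slc25a20 (-0.0049) with normexp, for Slc25a20 (-0.010) with median scaling, for Slc25a20 (-0.012) and Tsc22d3 (-0.026) with the deposited values, for Slc7a1 (-0.33) with the mean of all probes and for Myh4 (-0.075) with quantile normalization. Leaving out 1 KO array put Slc25a20 between -0.058 (without dexamethasone replicate 1) and 0.146 (without vehicle replicate 4). Of these, Dhrs2, Nxpe5 and Slc7a1 had passed.

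Same-numbered KO arrays did not deviate together (correlations -0.014, -0.32, -0.14 and 0.045), while the 3 pairs of KO arrays on the same slide did (0.46, 0.48 and 0.75; consensus 0.574 in the random block), and the reported fit has no slide term. With the replicate number as a block 2046 features passed and no interaction did, and 29 of the 257 genes lost their call. Dim probes limit what the arrays show: values near background have no order.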

Other observations

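Some stress, detoxification and lipid signalling genes also changed. Cyp1b1, a cytochrome P450 that oxidises steroids and xenobiotics, was at -3.16, -2.98, -2.84 and -2.52 with vehicle and at -0.18, -0.55, -0.07 and -0.42 with dexamethasone, 5.93-fold higher. The glutathione transferase gene Gstt1 fell 2.44-fold and the extracellular superoxide dismutase gene Sod3 1.97-fold. In the antioxidant and detoxification list 4 of 36 rose and 4 fell (1 and 2 without the arrays marked for evaluation). Abca1, the cholesterol exporter, rose 2.80-fold, and Sphk1, a sphingosine kinase, rose 2.75-fold, while Insig1, which retains the sterol sensor in the endoplasmic reticulum, fell 1.76-fold. They are the 2 rises and 1 fall among 29 sterol and sphingolipid genes, a share near the 10.2% that passed over all features. Among 28 heat shock and unfolded protein genes 4 rose and 2 fell (2 rose without vehicle replicate 1 or 3 or dexamethasone replicate 3 or 4), with the small heat shock gene Hspb1 1.43-fold and Herpud1 1.57-fold higher.

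Among the marker lists, Lep, the gene of the fat cell hormone leptin, was at -3.50, -3.40, -3.50 and -3.21 with vehicle and at -2.37, -1.43, -1.06 and -1.36 with dexamethasone, 3.59-fold higher, and none of the other 11 adipocyte markers passed. Of 19 macrophage markers 1 rose and 2 fell: Fcgr1, a high-affinity antibody receptor, fell 4.23-fold, while Lyve1, a marker of lymphatic vessels and some resident macrophages, rose 2.48-fold, with Aif1 the other fall. In the satellite cell list Sdc4, a heparan sulfate proteoglycan gene, rose 2.24-fold, 1 of 6 tested.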
